A study of Arabidopsis thaliana with 36 samples.

Results

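HHO1 (AT3G25790), HHO3 (AT1G25550) and HHO2 (AT1G68670) are 3 transcriptional repressors of the HRS1/HHO family, also called NIGT1 proteins, and were followed array by array through a split-root nitrate experiment in Arabidopsis thaliana. They were chosen by locus, with earlier results of these data known. Each has 1 probe set that the array's annotation gives to that locus alone: 257645_at for HHO1, 255734_at for HHO3 and 262284_at for HHO2. They are 3 of the 13350 genes that the annotation names by such a probe set, and all 3 probe sets passed the filter on dim signals.

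The HRS1/HHO proteins are DNA-binding proteins of the GARP group that are found in plants. Their genes are known to be induced by nitrate through the NLP transcription factors, and their products repress genes of nitrogen starvation, among them genes of high-affinity nitrate transporters, so that the family acts as a brake within the nitrate response. Family members are also known to join nitrate signals to phosphate signals: HHO1 acts with HRS1 on primary root growth under phosphate shortage when nitrate is present, and HHO2 has been linked to phosphate uptake and root branching.

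The study measured root RNA of the Columbia ecotype on 36 one-colour Affymetrix arrays, 3 biological repeats of 12 groups. All plants had been grown on 0.5 mM ammonium succinate with 0.1 mM KNO3 and 3 mM sucrose, had lost the primary root below its first laterals so that each plant had 2 main roots, and were 12 to 14 days old when moved to the treatment plates, which held 0.3 mM sucrose. Uniform plates carried 5 mM KNO3 on both sides (C.NO3) or 5 mM KCl on both sides (C.KCl). Split plates carried 5 mM KNO3 on one side (Sp.NO3) and 5 mM KCl on the other (Sp.KCl), and the roots were harvested at 2 hours, at 8 hours or on day 2. The number of plants behind an array is not given in the sources used here.

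The labels of the chloride samples contradict each other. The 9 samples titled as control KCl carry a treatment entry for KCl on a single side, and the 9 titled as split KCl carry one for KCl on both sides. The titles were followed, and for HHO1, HHO3 and HHO2 calls that are gained or lost when the chloride groups are exchanged are named with the result. Other single genes were not followed under the exchange. The nitrate groups are not affected by this.

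Median signals were between 194 and 222 on every array, and arrays of a group correlated at 0.961 to 0.987 across probe sets. Among root markers, only the root hair expansins EXPA7 and EXPA18 of 10 listed genes had a probe set of their own, and their summed signal was between 1375 and 3382. Among shoot markers, the Rubisco activase gene RCA and the antenna genes LHCB4.2 and LHCB4.1 of 10 listed genes did, with a summed signal between 345 and 1253. The 3′ to 5′ index, the mean log2 ratio of 3′ over 5′ signal of 4 pairs of control probe sets and a measure of RNA or labelling quality, had group means of 1.22 to 1.38 at 2 days and of 0.84 to 1.21 at the earlier times. In bulk RNA, fewer cells that express a gene and less RNA per cell cannot be told apart.

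HHO1 had a higher mean with nitrate than with chloride on both kinds of plate at each time, and its means climbed with time on both salts. On uniform chloride, though, only replicate 1 of the 8-hour arrays lay above the 2-hour mean. After 2 hours the arrays of uniform nitrate plates read 240, 250 and 189 and those of uniform chloride plates 112, 130 and 106. On split plates at 2 hours the nitrate side read 167, 238 and 178 and the chloride side 103, 108 and 98.4. Nitrate and chloride arrays did not overlap on either kind of plate; the nitrate arrays of 7.4% of all probe sets tested were separate and higher on uniform plates at this time, and those of 2.64% on split plates.

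After 8 hours the HHO1 signals of uniform nitrate plates were 351, 247 and 303, against 212, 110 and 106 on uniform chloride plates. Replicate 1 of uniform chloride stood apart from its pair of neighbours, at about the level of the 2-hour nitrate arrays. The nitrate side of the split plates read 385, 287 and 275 and the chloride side 134, 142 and 145. The groups were again separate on both kinds of plate, as were those of 8.97% of probe sets on uniform and 5.25% on split plates.

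After 2 days the HHO1 signals were 556, 603 and 480 on uniform nitrate plates and 431, 379 and 370 on uniform chloride plates. The split plates gave 724, 776 and 750 on the nitrate side and 303, 282 and 323 on the chloride side. The 12 arrays thus fell into 4 groups without overlap, with the split nitrate side on top and the split chloride side at the bottom; nitrate arrays were separate and higher for 11.5% of probe sets on uniform and 8.78% on split plates at this time.

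**Figure D1:**
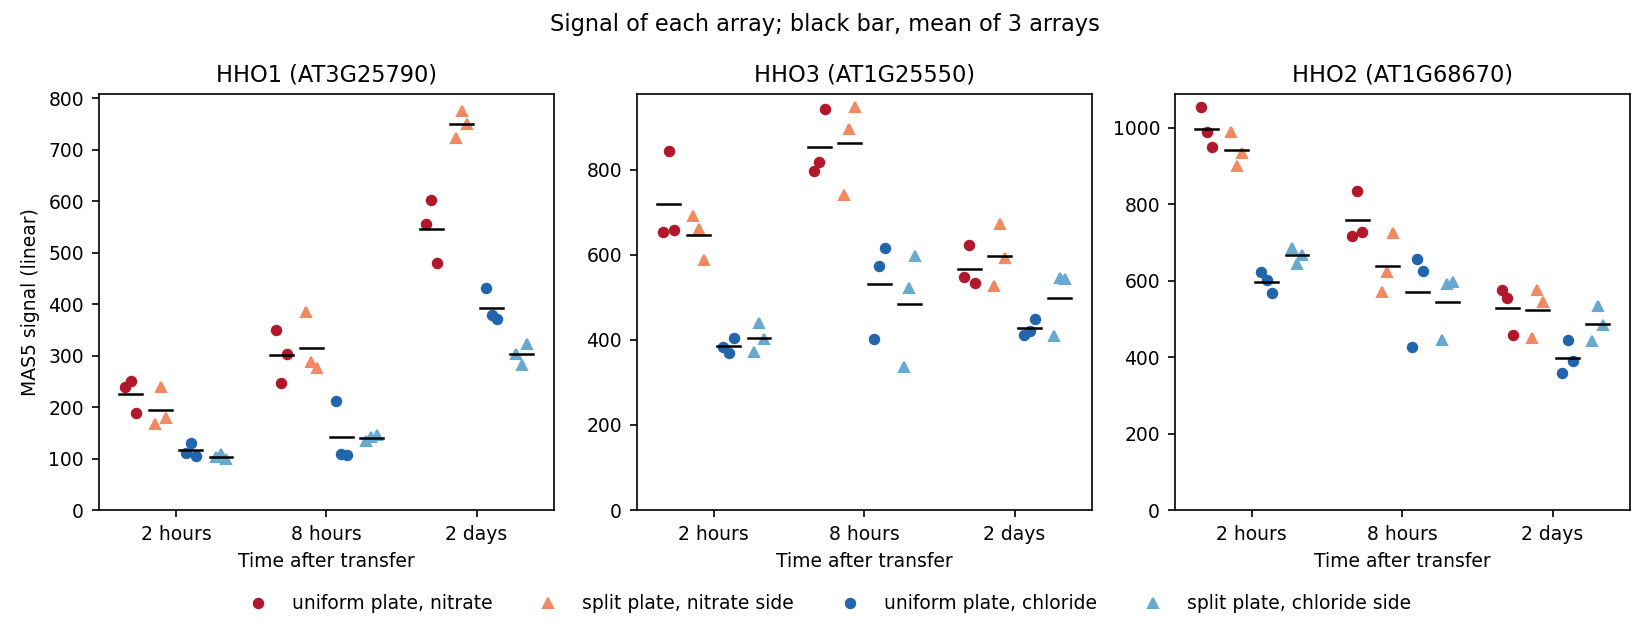
MAS5 signal (linear scale, vertical axis) of HHO1, HHO3 and HHO2 on each of the 36 arrays against time after transfer; points and triangles are single arrays, black bars the mean of 3 arrays, and colours the 4 conditions. HHO1 runs from 98.4 to 776 and is highest at 2 days, HHO3 runs from 335 to 949 with nitrate groups above chloride groups, and HHO2 runs from 359 to 1055 and is highest at 2 hours.

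HHO3, another repressor of the family and of nitrate transporter genes, also had a higher mean with nitrate in each of the 6 comparisons, and peaked at 8 hours with nitrate. The 2-hour arrays read 653, 844 and 659 on uniform nitrate plates and 383, 370 and 405 on uniform chloride plates. The split plates read 692, 662 and 588 on the nitrate side and 371, 440 and 402 on the chloride side. Neither pair of groups overlapped at 2 hours. Nitrate arrays were separate and higher then for 7.4% of probe sets on uniform and 2.64% on split plates. The chloride groups of both kinds of plate covered nearly the same range.

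At 8 hours HHO3 reached its highest signals, 798, 818 and 944 on uniform nitrate plates and 742, 896 and 949 on the nitrate side of split plates. The chloride arrays read 402, 573 and 617 on uniform plates and 335, 523 and 598 on split plates. Replicate 1 was the lowest array of all 4 groups, and no chloride array reached a nitrate array. Nitrate arrays were separate and higher at this time for 8.97% of probe sets on uniform and 5.25% on split plates.

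At 2 days the HHO3 arrays moved closer together. Uniform nitrate plates read 547, 623 and 534 against 412, 420 and 449 on uniform chloride plates, still without overlap, as for 11.5% of probe sets. The split plates read 527, 673 and 593 on the nitrate side and 410, 545 and 543 on the chloride side, where the groups overlapped.

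HHO2 had its highest signals at the first harvest. On uniform plates at 2 hours the nitrate arrays read 1055, 989 and 950 and the chloride arrays 622, 603 and 568. On split plates the nitrate side read 988, 901 and 934 and the chloride side 686, 645 and 668. Both pairs were separate, with a gap wider than the spread within any of the 4 groups. Separate and higher nitrate arrays were found at this time for 7.4% of probe sets on uniform and 2.64% on split plates.

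At 8 hours HHO2 read 716, 836 and 726 on uniform nitrate plates and 427, 656 and 626 on uniform chloride plates. These groups were separate, as for 8.97% of probe sets. The split plates read 570, 621 and 724 on the nitrate side and 445, 592 and 596 on the chloride side, and these groups overlapped. As for HHO3, replicate 1 was the lowest array of all 4 groups. The signals at 2 days were 575, 555 and 458 against 359, 444 and 389 on uniform plates and 451, 575 and 544 against 443, 534 and 484 on split plates. The uniform groups were separate by a narrow margin, where 11.5% of probe sets were separate and higher with nitrate, and the split groups lay across each other.

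The first comparison asks how each gene differed between nitrate and chloride when the whole root system met the same salt. All 3 genes rose with nitrate over the 3 times: HHO1 by 0.79 ± 0.10 (SE) on the log2(signal + 16) scale, HHO3 by 0.65 ± 0.09 and HHO2 by 0.52 ± 0.08. The adjusted p was 2.59e-06 for HHO1, 2.3e-05 for HHO3 and 5.02e-05 for HHO2, from limma's moderated test with Benjamini-Hochberg adjustment over 15922 probe sets. Of all probe sets tested, 1.6% were called higher. All 9 nitrate arrays of each gene lay above the chloride mean of their time, and the groups did not overlap at any time, which held for 0.377% of probe sets. The median difference of the 3 genes was 0.65, against -0.0025 over all probe sets tested. Each of the 3 calls kept its side of the threshold when any one of the 18 arrays was left out and when the chloride groups were exchanged.

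By time, the uniform plates gave calls for all 3 genes at 2 hours, where 1.01% of probe sets were called higher. HHO1 rose by 0.87 ± 0.17 (adjusted p 0.00672), HHO3 by 0.86 ± 0.16 (adjusted p 0.00411) and HHO2 by 0.72 ± 0.13 (adjusted p 0.00397). The HHO1 call at 2 hours was lost without replicate 1 of uniform nitrate (adjusted p 0.0524), and the HHO2 call was lost with the chloride groups exchanged (0.57, adjusted p 0.0802). The 3′ to 5′ index was 1.21 in the uniform chloride group at 2 hours and 0.90 to 1.01 in the other 2-hour groups. All 3 calls stood with the index in the fit.

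At 8 hours HHO1 was higher by 1.04 ± 0.17 (adjusted p 0.000945), about a doubling, and HHO3 by 0.69 ± 0.16 (adjusted p 0.0455), while 0.258% of probe sets were called higher. The HHO1 difference was 1.34 without the high replicate 1 of uniform chloride. In a fit of only the 6 arrays compared both calls were lost (adjusted p 0.122 for HHO1 and 0.125 for HHO3). The HHO3 call was lost without any one of 5 of the 6 arrays, all but replicate 3 of uniform chloride, and the difference was 0.51 (adjusted p 0.377) without replicate 1 of uniform chloride. It was also lost without the filter on dim signals (adjusted p 0.0635), without the intensity trend (adjusted p 0.0607) and with an ordinary linear model (adjusted p 0.0793). HHO2 differed by 0.43 ± 0.13 with an adjusted p of 0.223, and by the same amount with an adjusted p of 0.0228 when the replicate number was a block. Without replicate 1 of uniform chloride it was 0.24 (adjusted p 0.747).

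At 2 days on uniform plates 0 of the 3 genes was called by limma, against 1.31% of probe sets called higher. All 3 had an unadjusted p under 0.05, ranking 1026 (HHO1), 1253 (HHO3) and 681 (HHO2) by p among the 15922 probe sets tested. The differences were 0.45 ± 0.17 for HHO1 (adjusted p 0.201), 0.40 ± 0.16 for HHO3 (adjusted p 0.246) and 0.40 ± 0.13 for HHO2 (adjusted p 0.13), with separate groups for each gene. Nitrate arrays were separate and higher for 11.5% of probe sets in this comparison. With the replicate block the adjusted p became 0.0312 for HHO3 and 0.0142 for HHO2. With the chloride groups exchanged, HHO1 differed by 0.815 (adjusted p 0.0228), HHO3 by 0.19 (adjusted p 0.798) and HHO2 by 0.11 (adjusted p 0.87). The summed signal of the shoot markers was 684 to 851 in the nitrate arrays of this comparison and 345 to 471 in the chloride arrays, and its part in the differences was not tested. Whether the nitrate response differed between the times on uniform plates was tested by an F test over both medium by time terms. It gave adjusted p values of 0.395 for HHO1, 0.513 for HHO3 and 0.564 for HHO2, while 0.992% of probe sets were called.

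**Figure D2:**
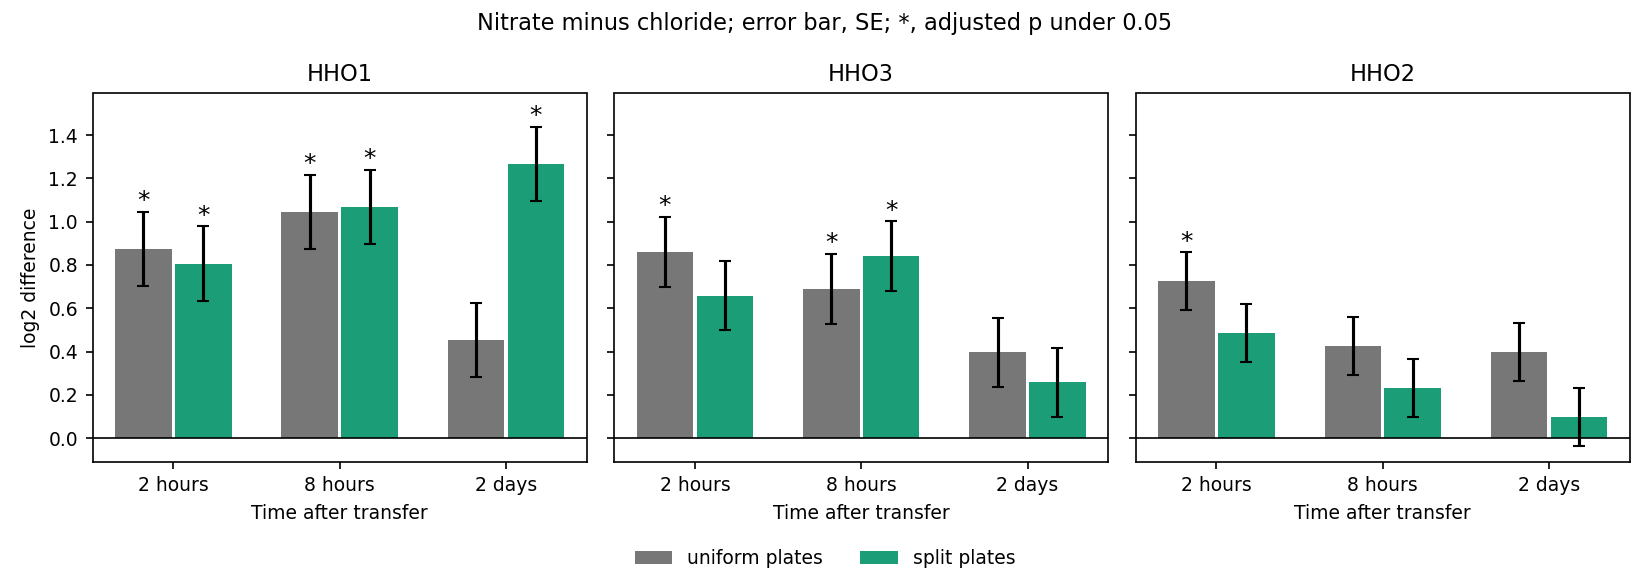
Difference between nitrate and chloride (log2 of signal + 16, vertical axis) at each time for HHO1, HHO3 and HHO2 on uniform plates (grey) and split plates (green), 3 arrays per side; error bars are standard errors and asterisks mark adjusted p under 0.05. Of the green bars, those of HHO1 are marked at every time, up to 1.27 at 2 days, that of HHO3 at 8 hours and none of HHO2; of the grey bars, HHO1 and HHO3 are marked at 2 and 8 hours and HHO2 at 2 hours.

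The second comparison sets the nitrate side against the chloride side of the same kind of split plate, where the plant as a whole had nitrate. HHO1 rose by 1.05 ± 0.10 over the times (adjusted p 9.51e-09) and HHO3 by 0.59 ± 0.09 (adjusted p 0.000141), with 9 of 9 arrays above the chloride mean for both genes and 0.848% of probe sets called higher. HHO2 differed by 0.27 ± 0.08, with 8 of 9 arrays above and an adjusted p of 0.0924. The median of the 3 genes was 0.59 and that of all probe sets 0.0053. For HHO2, exchanging the chloride groups gave 0.40 (adjusted p 0.00158).

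HHO1 passed the threshold on split plates at each of the 3 times, which 0.0942% of probe sets did. It rose by 0.81 ± 0.17 at 2 hours (adjusted p 0.0439), by 1.07 ± 0.17 at 8 hours (adjusted p 0.000603) and by 1.27 ± 0.17 at 2 days (adjusted p 2.89e-05). Probe sets called higher in these 3 comparisons were 0.138%, 0.214% and 0.546%, from the earliest to the latest. The 2-hour call was lost without any one of its 6 arrays, with adjusted p between 0.0618 and 0.473, and with the chloride groups exchanged (0.665, adjusted p 0.0533). A pseudocount of 64 (adjusted p 0.0879), no filter (adjusted p 0.0774) and an ordinary linear model (adjusted p 0.0981) ended it too. So did a fit of only the 6 arrays compared (adjusted p 0.796). The F test of a medium by time term on split plates gave an adjusted p of 1 for each of the 3 genes, with 0.0126% of probe sets called; HHO3 had an unadjusted p of 0.0442 in it. Differences between these times were not shown.

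HHO3 rose on split plates at 8 hours, by 0.84 ± 0.16 (adjusted p 0.00615). That call was lost without replicate 2 (adjusted p 0.051) or 3 (adjusted p 0.0773) of the nitrate side, without replicate 1 of the chloride side (0.60, adjusted p 0.19) and with the chloride groups exchanged (0.70, adjusted p 0.0531). At 2 hours HHO3 differed by 0.66 ± 0.16 (adjusted p 0.134, and 0.00204 with the replicate block) and at 2 days by 0.26 ± 0.16 (adjusted p 0.719). HHO2 differed by 0.49 ± 0.13 at 2 hours (adjusted p 0.37, and 0.0191 with the block), 0.23 ± 0.13 at 8 hours (adjusted p 0.975) and 0.10 ± 0.13 at 2 days (adjusted p 0.909). With the chloride groups exchanged the 2-hour differences passed, at 0.72 for HHO3 (adjusted p 0.024) and 0.64 for HHO2 (adjusted p 0.0158), and the 2-day differences were 0.46 for HHO3 (adjusted p 0.144) and 0.38 for HHO2 (adjusted p 0.149).

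The size of the nitrate response was then compared between the genes. Within each array the log2 value of one gene was taken from that of another, and an exact two-sided permutation test exchanged the salts within each time over 8000 arrangements. The exchange did not keep to the replicate number, although same-numbered arrays shared deviations on uniform plates. A version within replicate numbers was not run on either kind of plate. The smallest p it allows is 0.00025, and 6 tests were adjusted together. On split plates the HHO1 response exceeded that of HHO2 by 0.78 ± 0.12 on the log2 scale (exact permutation test, adjusted p 0.003) and that of HHO3 by 0.46 ± 0.13 (adjusted p 0.0325), and the HHO3 response exceeded that of HHO2 by 0.31 ± 0.06 (adjusted p 0.006). The split plates thus ordered the responses HHO1, HHO3, HHO2.

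The gap between HHO1 and HHO3 on split plates was 0.15 and 0.23 at the earlier times and 1.01 on day 2. It missed the threshold without any one of 6 arrays (replicate 2 of the nitrate side at 2 hours, replicate 1 of the nitrate side and replicates 2 and 3 of the chloride side at 8 hours, and replicates 1 and 3 of the nitrate side at 2 days), with adjusted p up to 0.078. It also missed with a pseudocount of 64 (0.34, exact permutation test, adjusted p 0.088) and with the chloride groups exchanged (0.27, adjusted p 0.193), which left HHO1 above HHO2 by 0.49 (adjusted p 0.0378).

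On uniform plates 0 of the 3 differences between responses passed, also at an unadjusted p under 0.05. HHO1 exceeded HHO3 by 0.14 ± 0.18 (exact permutation test, adjusted p 0.417) and HHO2 by 0.27 ± 0.19 (adjusted p 0.204), and HHO3 exceeded HHO2 by 0.13 ± 0.08 (adjusted p 0.178). Without replicate 1 of uniform chloride at 8 hours the excess of HHO1 over HHO2 was 0.44 (exact permutation test, adjusted p 0.0345) and that over HHO3 was 0.30. Without replicate 3 of the same group the latter was 0.051. With the chloride groups exchanged the uniform plates also gave the same order, HHO1 over HHO3 by 0.34 (adjusted p 0.026), HHO1 over HHO2 by 0.56 (adjusted p 0.003) and HHO3 over HHO2 by 0.22 (adjusted p 0.0326).

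**Figure D3:**
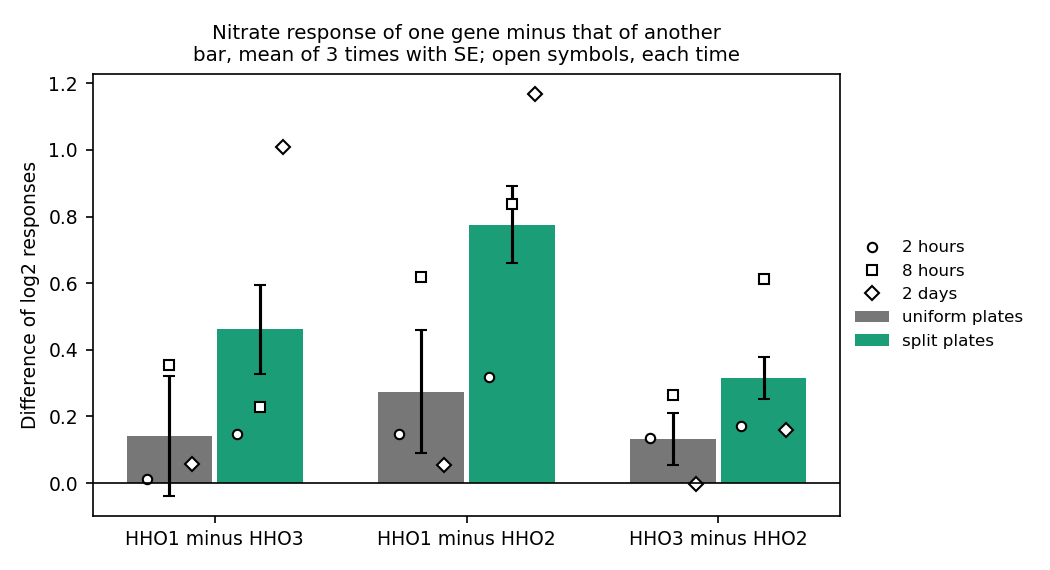
Nitrate response of one gene minus that of another (difference of log2 responses, vertical axis) for the 3 pairs of genes on uniform (grey) and split (green) plates; bars are means of the 3 times with standard errors, and open symbols the value at each time. On split plates the bars are 0.46, 0.78 and 0.31, and the widest single gaps are those of HHO1 at 2 days.

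The third comparison asks whether roots on one salt differed by what the other roots of the plant met. On the nitrate side, split plates differed from uniform plates over the times by 0.10 ± 0.10 for HHO1, -0.02 ± 0.09 for HHO3 and -0.12 ± 0.08 for HHO2, each with an adjusted p of 0.996 or 0.997. In this comparison 0.00628% of probe sets were called higher and 0% lower. On the chloride side the values were -0.15 ± 0.10 for HHO1, 0.04 ± 0.09 for HHO3 and 0.13 ± 0.08 for HHO2, with adjusted p of 0.568, 0.9 and 0.528, and 0.138% of probe sets were called higher and 0.107% lower. These 3 chloride-side values turn their sign when the chloride groups are exchanged, and without replicate 1 of uniform chloride at 8 hours that of HHO1 was -0.055 and that of HHO2 0.066. Over the times 0 of these 6 differences had an unadjusted p under 0.05. At the single times 0 of 18 passed with limma or with an ordinary linear model, and 3 had an unadjusted p under 0.05, all at 2 days (HHO1 on both sides and HHO2, at 0.28 ± 0.13, on the chloride side). On the nitrate side 0.00628% of probe sets were called higher at 2 days and 0% in any other single-time direction. On the chloride side 0.207% were called higher and 0.126% lower at 2 hours, 0.553% and 0.377% at 2 days, and 0% at 8 hours.

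Over the times the nitrate-side difference of HHO1 had a 95% interval of -0.10 to 0.31, that of HHO3 -0.21 to 0.17 and that of HHO2 -0.27 to 0.04. The chloride-side intervals were -0.36 to 0.05, -0.15 to 0.23 and -0.03 to 0.29 in the same order of genes for the groups as titled, and their signs turn too with the groups exchanged.

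HHO1 at 2 days was the case where the kinds of plate lay furthest apart. Its nitrate-side arrays read 724 to 776 on split plates and 480 to 603 on uniform plates, a difference of 0.45 ± 0.17 (unadjusted p 0.0135, adjusted p 0.999), and 5.94% of probe sets were separate in that direction. Its chloride-side arrays read 282 to 323 on split plates and 370 to 431 on uniform plates, a difference of -0.36 ± 0.17 (adjusted p 0.431), and 9.25% of probe sets were separate in that direction. The medium by plate term, which sets the nitrate response of split plates against that of uniform plates, was 0.81 ± 0.24 at 2 days (unadjusted p 0.00222, adjusted p 0.234), with 0.163% of probe sets called higher. It passed when only the 12 arrays of that time were fitted (adjusted p 0.0263), and it shrank to 0.09 (adjusted p 0.97) with the chloride groups exchanged, by which the chloride-side difference turns its sign.

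Over the times the medium by plate term was 0.26 ± 0.14 for HHO1 (adjusted p 0.552), -0.06 ± 0.13 for HHO3 (adjusted p 0.914) and -0.24 ± 0.11 for HHO2 (adjusted p 0.444), against 0.0942% of probe sets called higher and 0.0188% lower. A difference between the kinds of plate in the nitrate response was therefore not shown for any of the 3 genes, though the term of HHO2 had an unadjusted p of 0.0324. With the chloride groups exchanged the terms of HHO1 and HHO2 changed sign, to -0.05 and 0.01, and that of HHO3 to 0.02. Without replicate 1 of uniform chloride at 8 hours the term of HHO1 was 0.16.

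**Figure D4:**
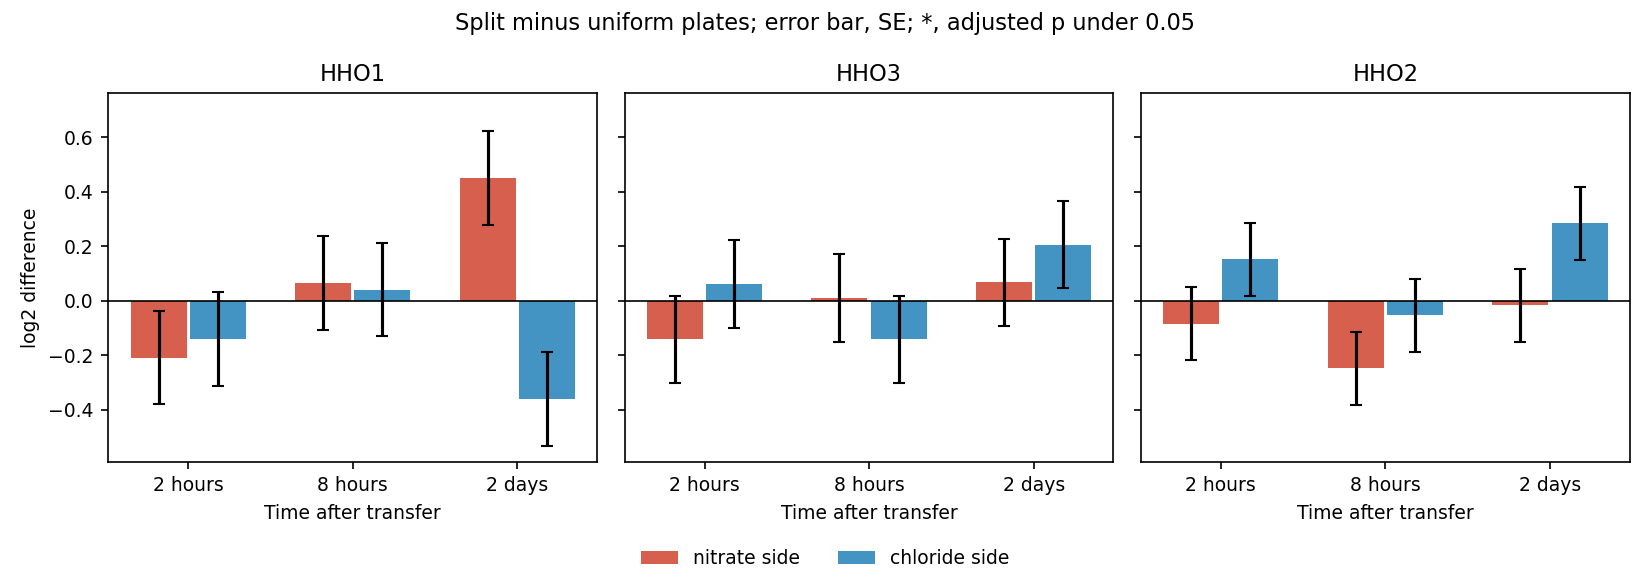
Difference between split and uniform plates (log2 of signal + 16, vertical axis) on the nitrate side (red) and the chloride side (blue) at each time for HHO1, HHO3 and HHO2, 3 arrays per group; error bars are standard errors, and an asterisk would mark adjusted p under 0.05. No bar carries one, and the widest pair is HHO1 at 2 days, at 0.45 for nitrate and -0.36 for chloride.

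The genes parted most clearly in their course over time. HHO1 rose from 2 to 8 hours by 0.41 ± 0.09 over the 4 conditions (adjusted p 0.000259) and from 8 hours to 2 days by 1.13 ± 0.09 (adjusted p 1.33e-12). HHO3 rose from 2 to 8 hours by 0.32 ± 0.08 (adjusted p 0.00154) and fell from 8 hours to 2 days by 0.33 ± 0.08 (adjusted p 0.000783). HHO2 fell in both steps, by 0.33 ± 0.07 (adjusted p 0.000156) and by 0.36 ± 0.07 (adjusted p 3.11e-05).

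Much of the transcriptome differed between the harvests. From 2 to 8 hours 22.7% of probe sets were called higher and 22.4% lower, and from 8 hours to 2 days 32.7% higher and 29.9% lower, so a call in either direction is common in these steps. Time on the plates cannot be told apart from plant age or from anything else that differed between the harvests. It also ran with the 3′ to 5′ index. With the index in the fit, calls for 2 days against 8 hours over the conditions went from 9966 to 5281. The summed signal of the root markers was 2017 to 2888 at 2 hours, 1375 to 2131 at 8 hours and 2335 to 3382 on day 2, and its part in the changes over time was not tested.

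From 2 hours to 2 days, a comparison added after the values were seen, HHO1 rose by 1.54 ± 0.09 (adjusted p 8.76e-16) and HHO2 fell by 0.69 ± 0.07 (adjusted p 2.53e-10), with 32.4% of probe sets called higher and 31.6% lower. HHO3 differed by -0.0038 ± 0.08 (adjusted p 0.971). The 12 arrays of HHO1 at 2 days all lay above the 2-hour mean of their condition, and those of HHO2 all below.

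The rise of HHO1 from 8 hours to 2 days passed in each of the 4 conditions, by 0.84 ± 0.17 on uniform nitrate, 1.22 ± 0.17 on split nitrate, 1.43 ± 0.17 on uniform chloride and 1.02 ± 0.17 on split chloride, with adjusted p from 1.72e-07 to 0.00033. In the same order 19.1%, 15.7%, 15.9% and 14.5% of probe sets were called higher. From 2 to 8 hours HHO1 passed on split nitrate alone among the single conditions, at 0.66 ± 0.17 (adjusted p 0.00808, 8.64% of probe sets called higher), and whether it differed there from the other conditions was not tested. With the 3′ to 5′ index in the fit the mean rise from 8 hours to 2 days was 0.99 (adjusted p 2.85e-06).

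HHO3 fell from 8 hours to 2 days on uniform nitrate, by 0.57 ± 0.16 (adjusted p 0.00573), and on split nitrate, by 0.52 ± 0.16 (adjusted p 0.0147), where 18.4% and 14.9% of probe sets were called lower. The chloride groups gave -0.28 ± 0.16 on uniform plates (adjusted p 0.186) and 0.07 ± 0.16 on split plates (adjusted p 0.791). With the 3′ to 5′ index in the fit the fall of HHO3 no longer passed, at -0.21 over the conditions (adjusted p 0.227), -0.45 on uniform nitrate (adjusted p 0.131) and -0.42 on split nitrate (adjusted p 0.108).

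HHO2 fell from 2 hours to 2 days in each of the 4 conditions, by 0.90 ± 0.13 on uniform nitrate, 0.83 ± 0.13 on split nitrate, 0.57 ± 0.13 on uniform chloride and 0.44 ± 0.13 on split chloride, with adjusted p from 4.55e-06 to 0.0114. In the same order 18.1%, 17%, 17.5% and 16% of probe sets were called lower. With the index in the fit the fall on split chloride was 0.40 with an adjusted p of 0.0783. In the single steps it passed on split nitrate from 2 to 8 hours (-0.55 ± 0.13, adjusted p 0.00415, 7.89% called lower), and on uniform nitrate (-0.51 ± 0.13, adjusted p 0.00333) and uniform chloride (-0.48 ± 0.13, adjusted p 0.00607, 16.2% called lower) from 8 hours to 2 days. Both of the later calls were lost with the index in the fit (adjusted p 0.0617 and 0.121), and the last also with the chloride groups exchanged (-0.15, adjusted p 0.429), when it passes on split chloride instead.

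**Figure D5:**
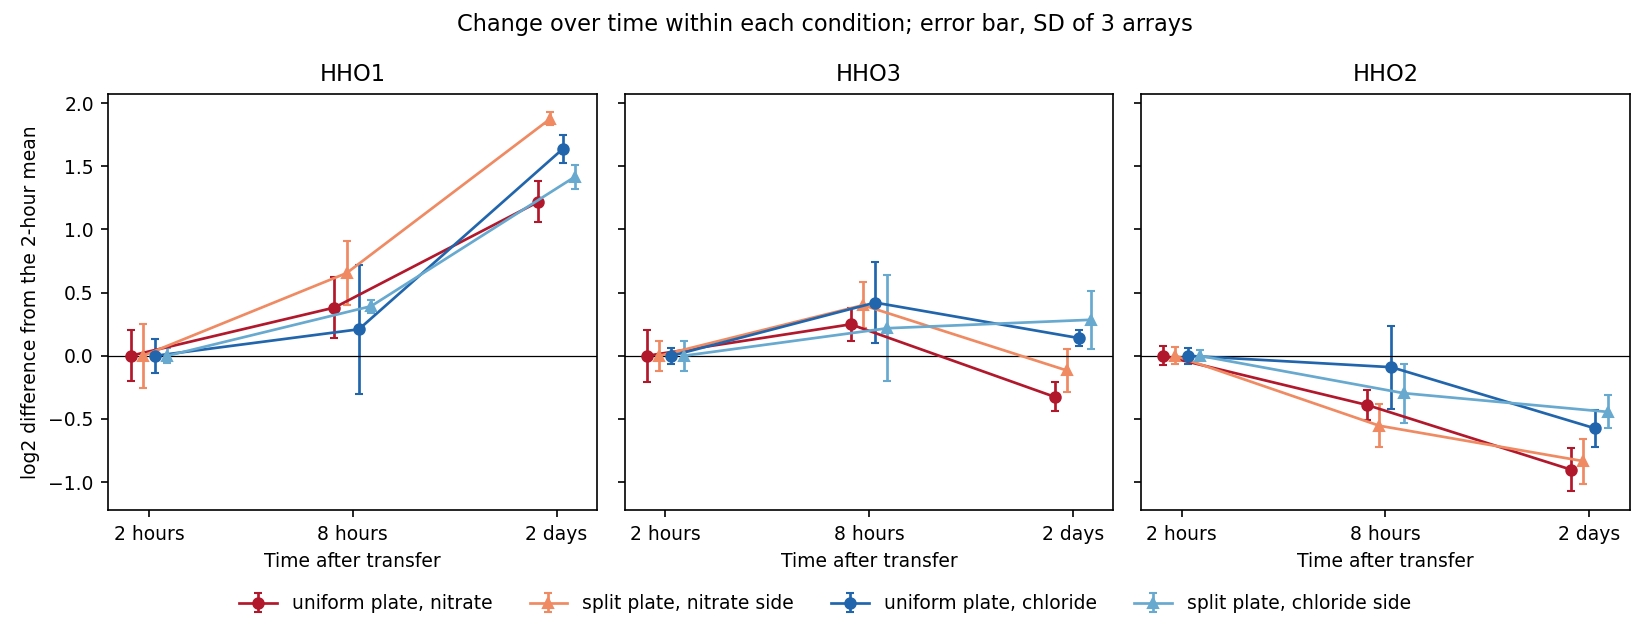
Group mean of log2(signal + 16) minus the 2-hour mean of the same condition (vertical axis) at the 3 harvests for HHO1, HHO3 and HHO2 in the 4 conditions; error bars are the SD of 3 arrays. HHO1 ends between 1.22 and 1.88 above its 2-hour level and HHO2 between 0.44 and 0.90 below it, while the 4 lines of HHO3 end between 0.32 below and 0.29 above their start.

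Ordered by group mean, HHO1 ran from 750 ± 25.9 (SD, n = 3) on the nitrate side of split plates at 2 days to 103 ± 4.85 on the chloride side of split plates at 2 hours, a 7.26-fold span. Of its 11 pairs of neighbouring groups 3 did not overlap: split nitrate over uniform nitrate at 2 days, uniform nitrate over uniform chloride at 2 days, and split chloride at 8 hours over uniform chloride at 2 hours. The neighbours were ranked on these same values, and how many other probe sets have such separate neighbours was not counted. The chloride groups of 2 days, at 393 ± 32.6 on uniform and 303 ± 20.7 on split plates, stood above both nitrate groups of 2 hours, at 226 ± 32.8 and 195 ± 38.3.

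HHO3 ran from 862 ± 108 on split nitrate at 8 hours to 386 ± 18.1 on uniform chloride at 2 hours, a 2.23-fold span. Its 6 nitrate groups held the 6 highest means and its 6 chloride groups the 6 lowest, but all 11 pairs of neighbours overlapped. HHO2 ran from 998 ± 52.9 on uniform nitrate at 2 hours to 397 ± 42.9 on uniform chloride at 2 days, a 2.51-fold span. Its separate neighbours were split nitrate at 2 hours over uniform nitrate at 8 hours, and the latter over split chloride at 2 hours. How many other probe sets share the order of HHO3 or the separate neighbours of HHO2 was not counted. The 2-hour chloride means of HHO2, 666 ± 21.0 on split and 598 ± 27.3 on uniform plates, were above its 2-day nitrate means of 529 ± 62.3 and 523 ± 64.6, with arrays of the uniform chloride group overlapping both.

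Across the 12 group means, which share the 36 arrays and their normalization, the pattern of HHO1 correlated with that of HHO3 at r = 0.39 and with that of HHO2 at r = -0.32, and HHO3 with HHO2 at r = 0.54. As a description, 436 of the 15921 other probe sets came at or above HHO2 in likeness to HHO3, HHO2 included. Counted the same way, HHO1 came at 1427 in likeness to HHO3, and HHO3 at 5055 in likeness to HHO1. In likeness to HHO2, HHO3 came at 3504 and HHO1 at 10217, and HHO2 came at 10641 in likeness to HHO1. Each of the 3 genes thus had other probe sets closer to it than the rest of the 3. Whether this sets them apart from other genes was not tested.

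Among 8791 other probe sets with a single gene, those most like HHO1 were SBT4.12, a gene of the subtilase family (r = 0.94 over 12 group means), AT4G03500 (r = 0.94), SIR, which encodes the sulfite reductase of sulfur assimilation (r = 0.93), and AT1G65900 (r = 0.93). The most opposed were TRM21 and AT2G39420, both at r = -0.90. SBT4.12 rose with nitrate by 0.36 ± 0.06 on uniform plates (adjusted p 0.000118) and by 0.36 ± 0.06 on split plates (adjusted p 0.000139), and AT4G03500 rose on split plates by 0.70 ± 0.09 (adjusted p 8.56e-06) and differed by 0.22 ± 0.09 on uniform plates (adjusted p 0.205). SIR gave 0.15 ± 0.07 on uniform plates (adjusted p 0.295) and 0.28 ± 0.07 on split plates (adjusted p 0.0489). AT1G65900 gave 0.26 ± 0.08 (adjusted p 0.0818) and 0.20 ± 0.08 (adjusted p 0.494) in the same order. These genes were picked for a likeness to a pattern that holds the nitrate difference, so their calls are no separate evidence.

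Most like HHO3 were AT1G67920 (r = 0.98), AT5G39590 (r = 0.96), AT5G26010 (r = 0.92) and AT1G73920 (r = 0.92), and most opposed were scpl29 (r = -0.86), named as a serine carboxypeptidase-like gene, and AT3G05320 (r = -0.87). All 4 of the genes most like HHO3 rose with nitrate on both kinds of plate, AT1G67920 by 0.34 ± 0.06 on uniform plates (adjusted p 0.00121) and 0.31 ± 0.06 on split plates (adjusted p 0.00571). They were picked for a likeness to a pattern that holds the nitrate difference, so these calls are no separate evidence.

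Most like HHO2 were AT1G25230, AT4G38810 and AT5G55210 (each r = 0.93) and AT1G80520 (r = 0.92), and most opposed were AT2G26780 and AT2G37700 (both r = -0.96). AT1G25230 rose with nitrate on uniform plates by 0.55 ± 0.11 (adjusted p 0.00256) and differed by 0.14 ± 0.11 on split plates (adjusted p 0.877). AT4G38810 gave 0.46 ± 0.10 (adjusted p 0.00361) and 0.05 ± 0.10 (adjusted p 0.973) in the same order. They too were picked for their likeness.

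Other genes of the pathway were taken from lists, of which only those with a probe set of their own could be followed. Of 4 further family members HHO5 and HHO6 could, and 0 of their 8 tests in the 4 comparisons over the times passed, 2 of them, both of HHO5, with an unadjusted p under 0.05. HHO5 gave 0.19 ± 0.12 on uniform plates (adjusted p 0.458) and -0.30 ± 0.12 on split plates (adjusted p 0.473), and HHO6 gave -0.15 ± 0.12 (adjusted p 0.569) and -0.24 ± 0.12 (adjusted p 0.635). HRS1 and HHO4 were not analysed here.

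Of 24 genes of nitrate signalling 3 were tested, and 0 of 12 tests passed in the 4 comparisons, with 2 at an unadjusted p under 0.05. The nitrate regulator NRG2 gave -0.13 ± 0.08 on uniform plates (adjusted p 0.428), and CEPD1, whose product travels from shoot to root as a nitrogen demand signal, gave -0.59 ± 0.23 (adjusted p 0.163). Of 16 genes of nitrate uptake and reduction 2 were tested. Both encode phosphogluconate dehydrogenases, enzymes that supply reducing power for nitrite reduction. Both rose on the nitrate side of split plates, PGD1 by 0.29 ± 0.06 (adjusted p 0.00276) and PGD3 by 0.37 ± 0.08 (adjusted p 0.00831). In that comparison 0.848% of probe sets were called higher. On uniform plates PGD1 gave 0.16 ± 0.06 (adjusted p 0.12) and PGD3 -0.05 ± 0.08 (adjusted p 0.787). On the chloride side, split against uniform plates gave -0.08 ± 0.06 for PGD1 (adjusted p 0.615) and -0.28 ± 0.08 for PGD3 (adjusted p 0.132). Whether the split-plate calls of PGD1 and PGD3 stand with the chloride groups exchanged was not tested. The transporter gene NRT2.5 was too dim to be tested, and 0 of 20 genes of phosphate starvation had a probe set of their own.

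Of the marker genes, 0 of 8 tests of root genes and 0 of 12 tests of shoot genes passed in these 4 comparisons, also at an unadjusted p under 0.05. EXPA7 and EXPA18 gave -0.01 ± 0.07 and -0.12 ± 0.09 on uniform plates, and RCA gave 0.27 ± 0.16 there (adjusted p 0.401).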

How the data were processed

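The values are signal intensities of 22810 probe sets on 36 arrays, made by the authors with MAS5 per the submitters' processing notes and deposited on a linear intensity scale. The trimmed mean, with 2% left off each end, was 500 on each array. Scanner files were not used here. The annotation pairs 13513 probe sets with a single gene, 503 with several and 8794 with none. Groups come from the sample titles.

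Signals were taken as log2(signal + 16). The 64 control probe sets and those with a mean signal below the 30th percentile (68.9) were left out, which kept 15922. limma 3.58.1 in R 4.3.3 fitted the 12 group means (lmFit, contrasts.fit, eBayes with an intensity trend, 24 residual and 7.09 prior degrees of freedom). Two-sided p values were adjusted by Benjamini-Hochberg within each comparison, with a threshold of 0.05. The differences of responses used an exact permutation test that did not use the replicate number. The fits were tested on simulated data. The number of arrays limits the precision.

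The 3 members are named in full. Beside each stand the 4 probe sets with one gene most like it and the 2 most opposed over 12 group means, and, from the lists, up to 4 genes past the threshold and up to 2 others. The members and the lists were chosen with earlier results of these data known.

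Same-numbered replicates were checked for pairing by correlating deviations from group means across probe sets. Every pair exceeded 0.1 for nitrate against chloride on uniform plates at all times (0.115 to 0.432) and on split plates at 2 and 8 hours, and not on split plates at 2 days (lowest 0.0856). Between kinds of plate it held at 2 hours on the nitrate side and at 2 and 8 hours on the chloride side. Alternatives were other pseudocounts, no filter, quantile normalization, the replicate block, exchanged chloride groups, no intensity trend, the 3′ to 5′ index as a covariate, an ordinary linear model, a fit of only the arrays compared, and each array left out.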

Additional observations from a re-analysis of the deposited data

Results flagged for a closer look

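Of 72 pairs of effects under the same contrast, 4 went opposite ways with every array past the mean of the group it was compared with. The arrays of the compared groups could still overlap, and the share of such pairs over all probe sets was not counted. HHO1 differed between split and uniform plates at 2 days by 0.45 on the nitrate side and by -0.36 on the chloride side, a difference of 0.8122, for which the interaction term gave an adjusted p of 0.234 (limma). HHO2 differed between the kinds of plate at 2 hours by -0.08 on the nitrate side and by 0.15 on the chloride side, a difference of -0.2372 with an adjusted p of 0.812 for the interaction term. HHO3 went from 2 hours to 2 days by -0.32 on uniform nitrate plates and by 0.14 on uniform chloride plates, a difference of -0.4648. Against the chloride side of split plates, where HHO3 went by 0.29, the difference from uniform nitrate was -0.6097. These differences of HHO3 were not tested singly. Groups of 3 arrays were not screened for outlying arrays.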

How the results depend on the processing

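Of 1038 values from alternatives, 994 kept their side of the threshold, 25 lost a call, 19 gained one and 0 reversed a called value. Among those that stayed uncalled, 25 changed sign. Exchanging the chloride groups turns the sign of each chloride-side difference between the kinds of plate by construction. HHO2 on split plates over the times was 0.2714 and passed with the replicate block (adjusted p 0.00601), and 0.4001 with the chloride groups exchanged (adjusted p 0.00158). The split-plate response of HHO1 exceeded that of HHO3 by 0.344 with a pseudocount of 64 and by 0.2656 with exchanged groups, both past the threshold no longer. With exchanged groups the uniform-plate differences passed, at 0.3378 (HHO1 over HHO3), 0.5566 (HHO1 over HHO2) and 0.2188 (HHO3 over HHO2). With single arrays left out, the difference of HHO1 over HHO3 on split plates ran from 0.3792 to 0.531 and that of HHO1 over HHO2 on uniform plates from 0.1921 to 0.4354. The replicate block, where numbers did not pair the arrays, brought the medium by plate term of HHO1 at 2 days to an adjusted p of 0.0358. Apart from the sign changes fixed by construction, the cause of these changes was not tested.

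Calls over all probe sets for nitrate against chloride over the times were 541 on uniform plates, 1371 with the replicate block and 135 with exchanged groups, and 186 on split plates, 372 with the block and 462 with exchanged groups. The medium by plate term over the times gave 18 calls, 132 with the block, 28 with the index, 8 without the filter, 5 without the trend, 1 with an ordinary linear model and 0 with exchanged groups. Calls for nitrate against chloride on uniform plates at 2 days went from 402 to 61 with exchanged groups and to 513 with only the 6 arrays compared. With only the 6 arrays compared, those at 2 hours went from 325 to 8, and the differences of all 3 genes there lost their call, with adjusted p of 0.109 to 0.161. The 8-hour calls went the same way, HHO1 (adjusted p 0.122) and HHO3 (0.125) on uniform plates and HHO3 on split plates (0.205), as did HHO1 on split plates at 2 hours (0.796).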

Other observations

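Within groups, HHO3 and HHO2 deviated together, and much of this ran with the replicate number. After the group mean was taken from each of the 36 arrays, their deviations correlated at r = 0.69 and rho = 0.59, given as a description because same-numbered arrays shared deviations, and at r = 0.54 without the 2 arrays farthest from the median of HHO3. By time r was -0.23 at 2 hours, 0.85 at 8 hours and 0.66 at 2 days, so the relation did not hold at 2 hours. At 8 hours replicate 1 was the lowest array in 4 of 4 groups for HHO3 and in 4 of 4 for HHO2, and the highest in 3 of 4 for HHO1. With the mean of each replicate number within its time taken out too, an alternative added after seeing the data, r between HHO3 and HHO2 was 0.38. The deviations of HHO1 correlated at r = -0.28 with HHO3 and at r = -0.48 with HHO2, and at 0.17 and -0.18 with the replicate number taken out.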
